A study of Mus musculus with 2 samples.

Results

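The Hox genes encode homeodomain transcription factors and lie in 4 clusters, Hoxa, Hoxb, Hoxc and Hoxd. Peaks of accessible chromatin at these genes were examined in E14.5 mouse striatum. The members were chosen by name, as the protein-coding RefSeq genes whose symbol is Hox followed by a, b, c or d and a number. This gave 39 of 21774 protein-coding genes. The peaks were chosen by position, as all peaks that overlap a cluster, from the first to the last Hox gene, or the 50 kb on either side of it. This gave 168 of 87174 peaks. Neither rule used a measured value, but the members were chosen with earlier results of these data known.

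The assay was single-nucleus ATAC-seq, which reads where a transposase can insert adapters into the DNA of single nuclei. The 2 libraries belong to 1 group, striatum of wild-type E14.5 embryos with C57BL/6J and CD1 given as strain, and the labels do not say whether they came from separate embryos. The deposited result is 1 shared list of peak positions for both libraries, with no count, score or sample. How deeply each library was sequenced and how far the libraries agree is therefore unknown. No value below has a replicate error and no test was made.

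Within a cluster all Hox genes are transcribed in the same direction, and genes of the same number in different clusters are paralogs that descend from 1 ancestral gene. Low-numbered genes at the 3′ end of a cluster are switched on early and specify the hindbrain and neck, whereas high-numbered genes at the 5′ end act late in the caudal trunk, limbs and genital region. In the embryonic brain the Hox code is known for the hindbrain and spinal cord, and the forebrain, from which the striatum arises, is classically described as free of Hox expression. Polycomb complexes, which keep genes silent, are known to occupy whole Hox clusters where these are not transcribed. Expression was not measured here, so that a peak shows accessible DNA and not transcription. Paralog groups 1 to 4 are called anterior here, groups 5 to 8 central and groups 9 to 13 posterior.

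The sequences in question are the gene starts, and several are shown as examples of windows that peaks covered wholly, partly or not at all. RefSeq promoter windows of GRCm38.p6 (the assembly named mm10), from 250 bases before to 50 after the start, were given for 22 of the 39 genes and comprised 24 windows. Hoxa13, Hoxd4, Hoxc4, Hoxb4, Hoxb8 and both starts of Hoxd11 are printed 5′ to 3′ on the strand of the gene, with CpG dinucleotides in capitals. All 300 bases lay in a peak at Hoxa13 (chr6:52260831-52261130, minus strand), at Hoxc4 (chr15:103034145-103034444, plus strand) and at the second start of Hoxd11 (chr2:74682073-74682372, plus strand). At Hoxb4 (chr11:96318017-96318316, plus strand) 181 bases did, and at the first start of Hoxd11 (chr2:74679308-74679607, plus strand) only the last 4. No base did at Hoxd4 (chr2:74721728-74722027, plus strand) or Hoxb8 (chr11:96281655-96281954, plus strand).
Hoxa13: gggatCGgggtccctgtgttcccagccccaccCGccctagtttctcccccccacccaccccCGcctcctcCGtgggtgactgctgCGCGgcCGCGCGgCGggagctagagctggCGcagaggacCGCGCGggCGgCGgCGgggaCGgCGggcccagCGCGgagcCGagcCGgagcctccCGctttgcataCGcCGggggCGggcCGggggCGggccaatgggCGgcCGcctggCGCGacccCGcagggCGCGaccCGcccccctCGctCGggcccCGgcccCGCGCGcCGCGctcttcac
Hoxc4: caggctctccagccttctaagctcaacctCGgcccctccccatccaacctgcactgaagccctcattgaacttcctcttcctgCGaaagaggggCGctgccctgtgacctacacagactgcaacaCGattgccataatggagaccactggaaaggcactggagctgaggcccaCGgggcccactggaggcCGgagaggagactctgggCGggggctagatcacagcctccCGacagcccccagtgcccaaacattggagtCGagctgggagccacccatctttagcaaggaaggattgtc
Hoxd11, second start: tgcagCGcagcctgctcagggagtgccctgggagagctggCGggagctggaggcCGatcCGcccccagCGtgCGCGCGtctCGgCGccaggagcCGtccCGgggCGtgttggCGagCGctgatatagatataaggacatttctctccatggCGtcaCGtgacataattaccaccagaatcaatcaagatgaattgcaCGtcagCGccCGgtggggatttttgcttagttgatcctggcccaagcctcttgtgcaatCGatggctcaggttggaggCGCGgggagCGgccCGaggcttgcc
Hoxb4: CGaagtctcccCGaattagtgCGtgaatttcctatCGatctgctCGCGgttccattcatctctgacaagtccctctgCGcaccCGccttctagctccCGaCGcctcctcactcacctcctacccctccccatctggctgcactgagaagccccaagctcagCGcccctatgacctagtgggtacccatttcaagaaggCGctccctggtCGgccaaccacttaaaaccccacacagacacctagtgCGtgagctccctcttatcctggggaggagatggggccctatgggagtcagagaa
Hoxd11, first start: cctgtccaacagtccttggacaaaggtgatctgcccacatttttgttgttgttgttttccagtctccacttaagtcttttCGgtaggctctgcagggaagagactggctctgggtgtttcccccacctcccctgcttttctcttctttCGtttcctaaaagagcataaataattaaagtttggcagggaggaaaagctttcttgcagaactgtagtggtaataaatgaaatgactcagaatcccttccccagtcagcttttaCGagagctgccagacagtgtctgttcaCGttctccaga
Hoxd4: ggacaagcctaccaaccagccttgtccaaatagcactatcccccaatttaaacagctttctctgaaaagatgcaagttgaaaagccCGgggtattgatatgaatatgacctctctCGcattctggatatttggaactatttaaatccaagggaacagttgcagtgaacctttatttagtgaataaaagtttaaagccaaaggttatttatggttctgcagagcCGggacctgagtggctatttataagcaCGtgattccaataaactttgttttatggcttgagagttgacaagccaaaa
Hoxb8: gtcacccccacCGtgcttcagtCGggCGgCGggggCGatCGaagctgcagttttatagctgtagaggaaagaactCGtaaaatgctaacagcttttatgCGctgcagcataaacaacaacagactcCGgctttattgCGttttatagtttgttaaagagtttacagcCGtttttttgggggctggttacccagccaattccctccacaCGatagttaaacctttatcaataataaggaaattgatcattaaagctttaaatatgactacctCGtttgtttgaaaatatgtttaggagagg

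CpG dinucleotides numbered 45 in the Hoxa13 window, 25 at the second start of Hoxd11 and 4 each at the first start of Hoxd11 and at Hoxd4. The order of CpG number was not that of coverage, since Hoxb8 with no base in a peak held 13 and the wholly covered Hoxc4 held 9. The 24 Hox windows ranged from 4 to 45 CpGs. In the 15 Hox windows that lay wholly in a peak the median was 20, and in the 2 with no base in a peak it was 8.5. Over all 21263 protein-coding windows the same medians were 22 in 12814 wholly covered windows and 3 in 7581 windows with no base in a peak. Covered windows held more CpGs than uncovered ones in both sets, and the Hox medians rest on few windows.

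The 4 clusters were among the stretches of the genome densest in peaks. Their spans, 492.1 kb together, held 136 peaks, or 2.76 per 10 kb against 0.320 per 10 kb over chromosomes 1 to 19, X and Y. Peaks covered 32.4% of the cluster spans against 2.86% of these chromosomes, and 6.95% of the 8 flanks. Gaps between neighbouring peaks had a median of 1713 bp in the clusters and of 10724 bp genome-wide. In the 100 kb centred on each cluster, Hoxa held 34 peaks, Hoxc 30, Hoxd 26 and Hoxb 25. Of 27206 windows of 100 kb laid end to end along the chromosomes, none held as many as Hoxa or Hoxc, 10 held as many as Hoxd and 12 as many as Hoxb. The Hox windows were centred on the clusters and the others lay at fixed positions, so that they were not placed alike. By covered length 9 windows equalled or exceeded Hoxa, 19 Hoxc, 20 Hoxd and 126 Hoxb.

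**Figure D1:**
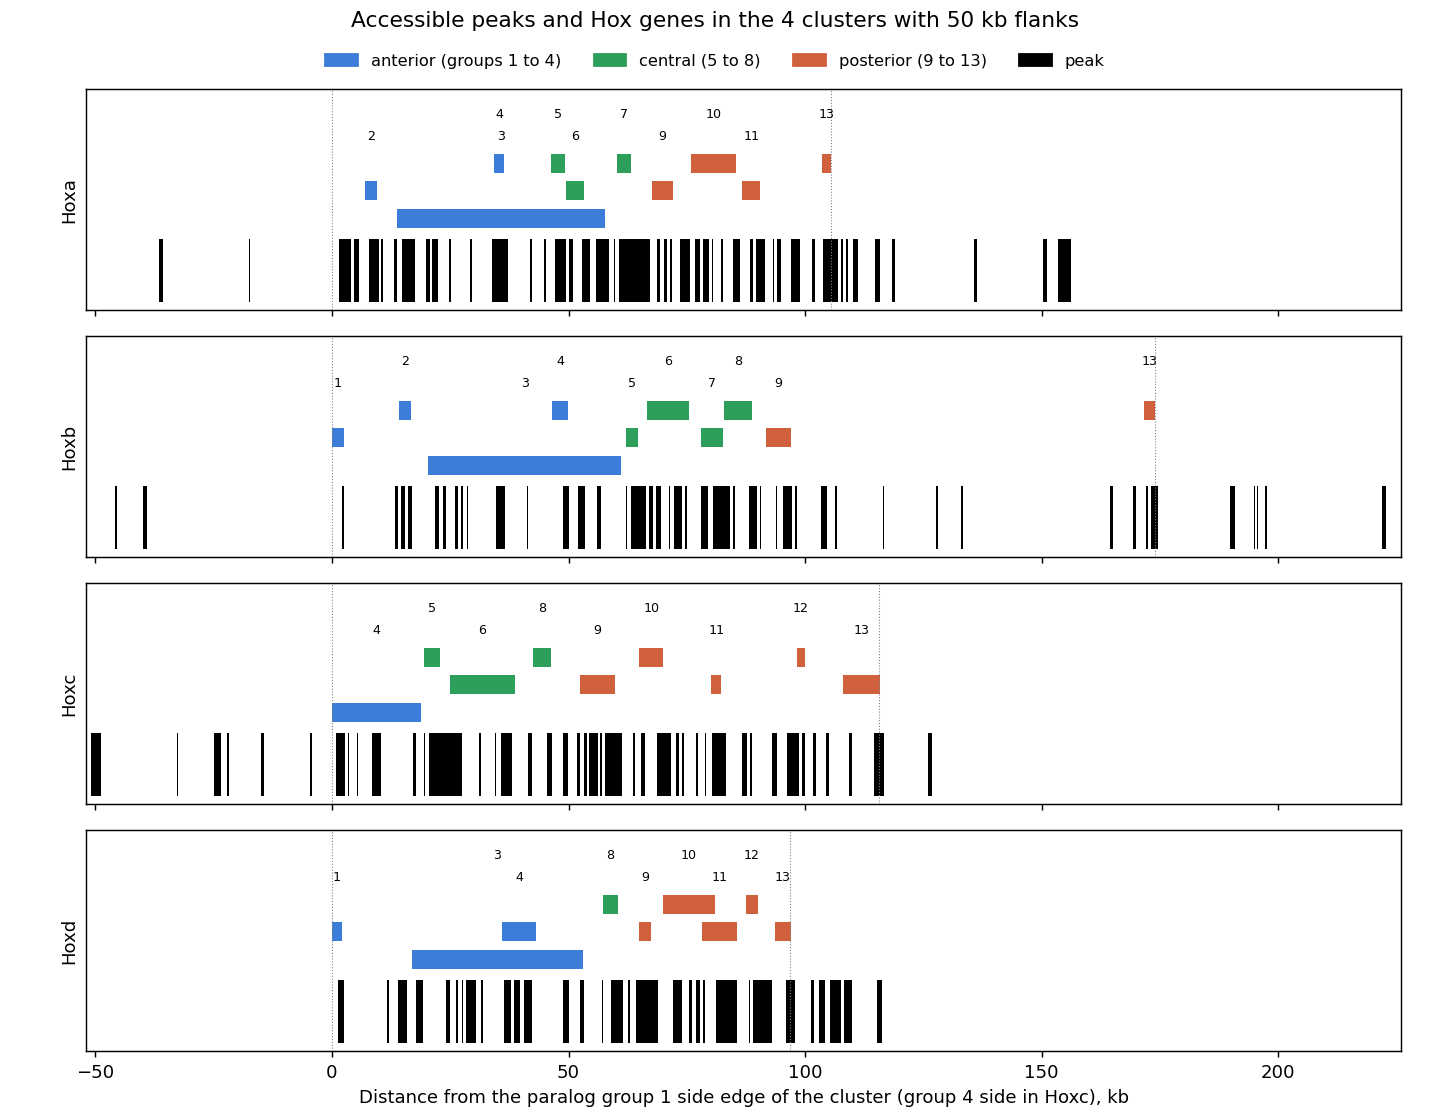
Peaks (black) and 38 Hox genes (coloured by paralog class, labelled with their paralog group) along each cluster and its 50 kb flanks. The horizontal axis is the distance in kb from the edge on the side of the lowest paralog group, dotted lines mark the cluster edges, and height has no meaning. Peaks crowd between the dotted lines in all clusters, the Hoxb cluster has a stretch with few peaks between Hoxb9 and Hoxb13, and the flank beyond Hoxd1 is empty.

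The clusters differed from each other. Hoxa, on chromosome 6 from 52155367 to 52260880 with 11 genes, was the most covered, with 35 peaks over 44.1% of its 105.5 kb. Hoxd, on chromosome 2 from 74668225 to 74765142 with 9 genes, had 26 peaks over 37.8% of 96.9 kb. Hoxc, on chromosome 15 from 102921131 to 103036856 with 9 genes, had 35 peaks over 36.5% of 115.7 kb. Hoxb, on chromosome 11 from 96194316 to 96368254 with 10 genes, was the least covered, with 40 peaks over 19.7% of 173.9 kb. The peaks of Hoxd were the widest, with a median of 1230.5 bp against 892 bp in Hoxa, 717 bp in Hoxc and 627.5 bp in Hoxb. In the 74.7 kb between Hoxb13 and Hoxb9 10 peaks covered 6.12%, and the longest gap of the cluster, 31091 bp, lay there (96203849 to 96234940). Without this interval 29.95% of Hoxb was covered, still the lowest share of the clusters. In the other clusters the longest gap was 4709 bp in Hoxa, 6767 bp in Hoxc and 9093 bp in Hoxd.

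Start sites came next. A start was taken from the promoter table for 22 genes and, for the other 17, as the gene end on the strand of the cluster, which may be the outer end of a long predicted transcript. The median gap between peaks in the clusters was 1713 bp, so that many positions there lie within 1000 bp of a peak, start or not. Other positions in the clusters were not counted in this way. A peak lay within 1000 bp of a start at 38 of 39 genes, and at 21 of the 22 with a listed start, against a background of 66.6% of 17492 protein-coding genes with a listed start. The exception was Hoxb8, whose nearest peak lay 1070 bp from the listed start. Its outer gene end, the kind of start used for the other 17 genes, lay in a peak of 1599 bp. A start base itself lay in a peak at 31 of 39 genes (at Hoxd11 that of its second start) and at 19 of the 22, against 64.0% of protein-coding genes. Among the other genes with the start base outside a peak, Hoxc12 missed by 22 bp, Hoxa9 by 33 bp, Hoxb6 by 417 bp, Hoxc6 by 537 bp, Hoxd4 by 974 bp and Hoxb3 by 991 bp. Of these, Hoxa9 and Hoxd4 have a listed start.

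Width at the start was examined next. The widest peak at the start had a median width of 1937 bp over the 21 listed genes that had one, against 1739 bp over all protein-coding genes with a listed start and a start-site peak. A start-site peak among the broadest 1% of the list, wider than 4479 bp, was found at 3 of 39 Hox genes and at 2 of the 22 with a listed start, against 2.97% of protein-coding genes. These lay at Hoxc5 (6845 bp, 103009429 to 103016274 on chromosome 15), Hoxa7 (6720 bp, 52215947 to 52222667 on chromosome 6) and Hoxd9 (4644 bp, 74696323 to 74700967 on chromosome 2). They ranked 220, 237 and 774 by width among all peaks. Hoxc5 and Hoxa7, central genes active in the cervical and thoracic spine, thus carried the widest Hox peaks.

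The distance between the shares of Hox and all genes varied around the start. At the 24 listed Hox starts the start base lay in a peak in 83.3%, against 63.4% of 21263 listed protein-coding starts, and 1000 bp downstream the shares were 62.5% and 30.3%. At 250 bp upstream the shares were close, at 62.5% and 60.98%, and at 750 bp upstream they were 45.8% and 31.8%. At 5000 bp upstream 37.5% of Hox positions and 5.18% of positions at all protein-coding starts lay in a peak, and at 5000 bp downstream 41.7% and 4.87%. Neighbouring Hox genes are often closer than this, so that peaks at one start also count at another. At 1500 bp upstream the Hox share was 20.8%, against 10.3%, and at 9500 bp downstream 16.7%, against 4.6%. By place, the 43 peaks near a Hox start made up 56.0% of the covered bases of the clusters, 60 peaks elsewhere on Hox gene spans 30.5% and 33 peaks between genes 13.6%. The start-site peaks had a median of 1934 bp, those on gene bodies 639 bp, those between genes 515 bp and the 32 in the flanks 714 bp. In Hoxa 65.6% of covered bases belonged to start-site peaks and in Hoxb 37.5%.

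**Figure D2:**
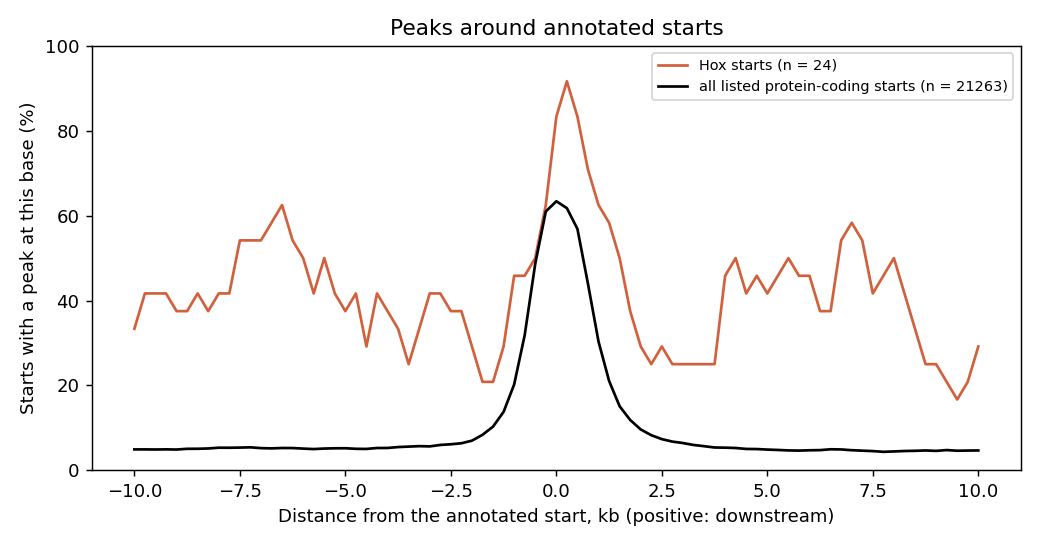
Share of annotated starts with a peak at each distance, for the 24 listed Hox starts (orange) and all 21263 listed protein-coding starts (black). The horizontal axis is distance in kb, positive downstream. At the start the shares are 83.3% and 63.4%, while at 5000 bp upstream they are 37.5% and 5.18%.

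Every Hox gene had at least 1 peak on its span (39 of 39, against 73.3% of protein-coding genes), with up to 12 at the long Hoxa3. Peaks covered a median of 46.8% of the span (range 16.8% to 100%), against 3.77% over all protein-coding genes. At least 50% of the span was covered at 18 of 39 Hox genes, against 4.59% of protein-coding genes. Hox genes are short, and short genes can be covered more fully by 1 peak. Among genes of at most 10 kb the median was 54.0% for 33 Hox genes and 0% for 7857 protein-coding genes.

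In the Hoxa cluster Hoxa4, which patterns the cervical vertebrae, was covered completely by a peak of 3346 bp. Hoxa7 was covered to 89.0%, Hoxa13, a gene of digit and genital development, to 81.2% and Hoxa5, known for lung development, to 70.2%. Hoxa2, which specifies the second branchial arch, reached 62.9%. The lowest shares were 35.2% at Hoxa6, 36.8% at Hoxa3, 39.2% at Hoxa10, 39.7% at Hoxa9 and 40.8% at Hoxa11. Hoxa3 spans 44009 bp and contains Hoxa4, Hoxa5 and Hoxa6, so that its 12 peaks include theirs. In the other clusters Hoxb3 contains Hoxb4, Hoxd3 contains Hoxd4 and Hoxd10 overlaps Hoxd11, so that their shares are not separate either.

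In the Hoxb cluster the median was lower over the anterior genes (28.2%) than over the central (58.0%) or posterior ones (48.0%), but single genes overlapped. Hoxb1, the gene of rhombomere 4 in the hindbrain, was covered to 16.8% by 1 peak of 465 bp, the lowest share among the 39 genes. Hoxb3, of 40830 bp, had 21.5%, Hoxb4 34.9% and Hoxb2 53.4%. The central genes had 69.3% at Hoxb5, 76.9% at Hoxb7, 46.8% at Hoxb6 and 43.0% at Hoxb8, so that Hoxb2 exceeded Hoxb6 and Hoxb8. The peak of 3734 bp at the Hoxb7 start also reached Hoxb8. Of the posterior genes Hoxb9 had 34.2% and Hoxb13, known for tail and prostate, 61.8%.

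In the Hoxc cluster Hoxc11 was covered to 93.8% by a peak of 3022 bp, followed by Hoxc5 (72.5%), Hoxc9 (69.1%) and Hoxc12 (68.0%). Hoxc6 (40.0%) and Hoxc10, which acts in lumbar motor neurons (39.5%), were intermediate. Hoxc4 (25.8%), Hoxc8, which acts in brachial motor neurons (24.5%), and Hoxc13, the gene of hair and nail (23.6%), were the least covered. In the Hoxd cluster Hoxd9 was covered completely, Hoxd11 to 64.4%, Hoxd4 to 62.2% and Hoxd12 to 54.0%. Hoxd8 had 48.4%, Hoxd1 36.6%, Hoxd10 33.4%, Hoxd3 32.9% and Hoxd13, a gene of digit development, 25.7%. At Hoxd4 3 peaks covered the gene although none reached its start. Complete coverage was thus found at Hoxa4 and Hoxd9, which are not paralogs.

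Values differed between paralogs. Within group 13 the widest start-site peak measured 3025 bp at Hoxa13, 2081 bp at Hoxc13, 1799 bp at Hoxd13 and 1504 bp at Hoxb13. Within group 9 it measured 4644 bp at Hoxd9, 3648 bp at Hoxc9, 1930 bp at Hoxb9 and 499 bp at Hoxa9. Groups 5 and 7, picked after the values were seen, were high throughout in covered share of the 10 kb around the start, at 49.0% to 70.9% over 3 genes of group 5 and 56.5% to 71.9% over 2 genes of group 7. The lowest shares were 4.65% at Hoxb1 and 11.8% at Hoxd1. Across the 39 genes paralog group and this share had a Spearman correlation of 0.17, a description only, since neighbours share peaks.

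**Figure D3:**
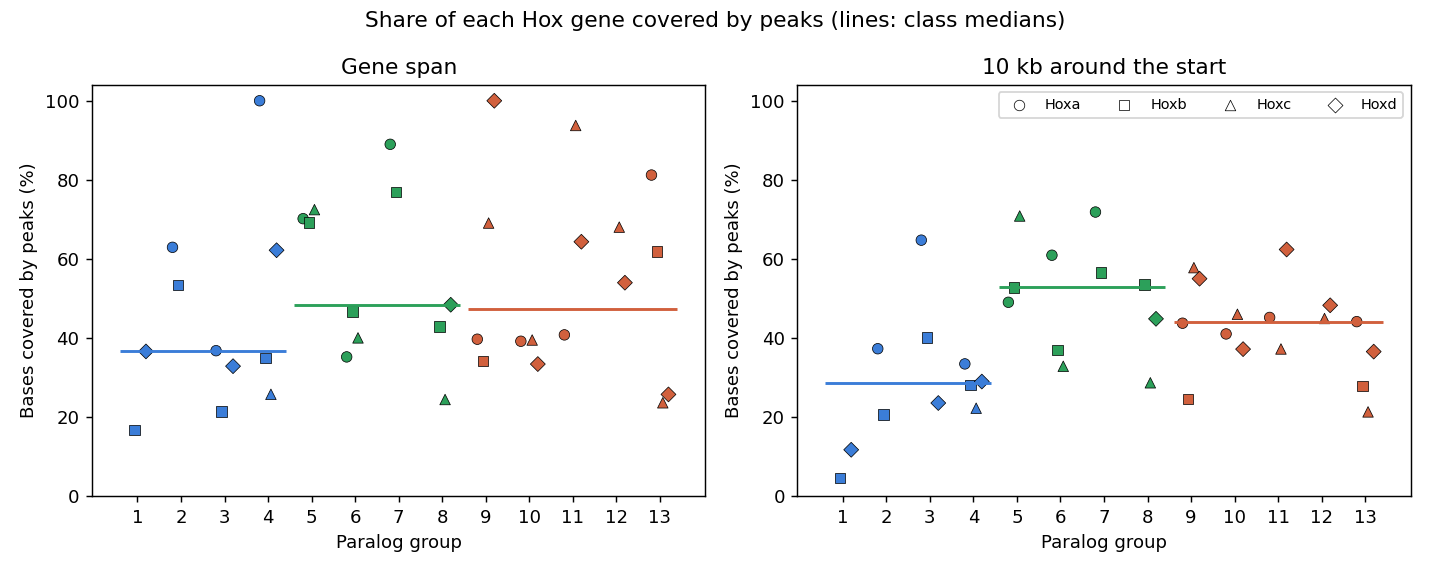
Covered share (%) of the gene span (left) and of the 10 kb around the start (right) for 38 Hox genes by paralog group. Marker shapes give the cluster, colours the class and horizontal lines the medians of each class over all 39 genes. On the right the anterior line lies at 28.5%, the central at 52.8% and the posterior at 44.0%.

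Anterior genes were then set against posterior ones. By gene span, the 12 anterior genes had a median covered share of 36.7% (range 16.8% to 100%), the 11 central genes 48.4% (24.5% to 89.0%) and the 16 posterior genes 47.4% (23.6% to 100%). The ranges of the classes overlapped almost wholly. Anterior minus posterior was -10.7 percentage points. Gene length moved with this difference, since 4 of the 6 genes longer than 10 kb are anterior (Hoxa3, Hoxb3, Hoxc4 and Hoxd3) and only Hoxc6 and Hoxd10 are not. Among genes of at most 10 kb the medians were 56.0% for 8 anterior genes, 58.8% for 10 central genes and 54.0% for 15 posterior genes, so that the order of anterior and posterior turned. It also turned, by 0.354 percentage points, without the Hoxb cluster (47.7% and 47.4%).

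In 10 kb around the start, a window of the same size for all genes, the medians were 28.5% for anterior, 52.8% for central and 44.0% for posterior genes. The place of the window still depends on the transcript. At the long Hoxa3 (64.75%) and Hoxb3 (40.15%) it lay beside central genes, Hoxa6 and Hoxa7 or Hoxb5. For Hoxa10 and Hoxd11, posterior genes with 2 listed starts each, the start with the higher share was used. The widest start-site peak had a median of 1461 bp in anterior, 2429 bp in central and 2019 bp in posterior genes. Here the central gene Hoxb8, without a start-site peak, was counted as 0 bp. Start bases in a peak numbered 9 of 12 anterior, 8 of 11 central and 14 of 16 posterior genes, again beside 64.0% of protein-coding genes with a listed start.

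The same contrast was made along the DNA, with each cluster divided at the 3′ ends of its last posterior and last central gene. Summed over clusters, anterior segments (185.2 kb) were covered to 25.8%, central segments (91.6 kb) to 51.2% and posterior segments (215.4 kb) to 30.2%. In Hoxa the anterior, central and posterior segments had 34.7%, 66.8% and 42.9%. In Hoxb they had 18.2%, 51.5% and 9.47%, in Hoxc 24.9%, 41.0% and 37.7%, and in Hoxd 27.3%, 49.98% and 53.5%. The central segment was the most covered in Hoxa, Hoxb and Hoxc, and the posterior one in Hoxd. Anterior segments were less covered than posterior ones in 3 clusters, and Hoxb went the other way. Of the 82.3 kb of the Hoxb posterior segment, 74.7 kb are the DNA between Hoxb13 and Hoxb9, which was covered to 6.12%. The posterior sum includes this interval too. By gene the exception was another cluster. The median covered span was 60.8% in anterior and 40.3% in posterior genes of Hoxa, whereas in Hoxb it was 28.2% and 48.0%, in Hoxc 25.8% (Hoxc4 alone) and 68.0%, and in Hoxd 36.6% and 54.0%. The direction within a cluster thus depended on the measure in Hoxa and Hoxb. Without Hoxb the sums were 29.7% anterior, 51.0% central and 43.0% posterior. Summed over clusters the central segments also held the most genes per length (11 genes in 91.6 kb, against 12 anterior genes in 185.2 kb and 16 posterior genes in 215.4 kb), and the part of this in their share was not tested.

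**Figure D4:**
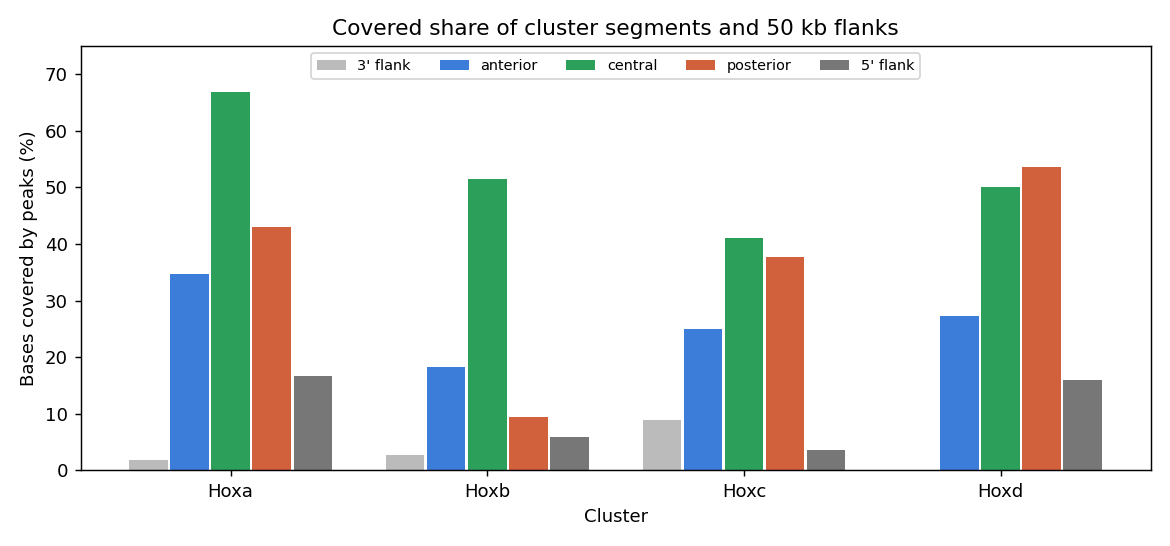
Share of bases (%) covered by peaks in the 3′ flank, the anterior, central and posterior segments and the 5′ flank of each cluster. Each bar is 1 value from the shared peak list, without error. Central bars reach 66.8% in Hoxa and 51.5% in Hoxb, and the 3′ flank of Hoxd is at 0%.

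Coverage fell off at the edges of the clusters, and unequally. On the 5′ side, beyond group 13, the 50 kb flanks were covered to 16.6% at Hoxa and 16.0% at Hoxd, but to 5.91% at Hoxb and 3.60% at Hoxc. The Hoxa and Hoxd flanks adjoin Evx1 and Evx2, homeobox genes related to even-skipped that act in spinal interneurons. Evx2 lay in the Hoxd flank with 3 peaks over 54.8% of its span. Evx1 lies just beyond the 50 kb, and a peak of 4878 bp at its end covered 95.9% of it. On the 3′ side the flanks had 1.86% at Hoxa, 2.70% at Hoxb and 8.94% at Hoxc, and no peak at Hoxd. The next peak beyond Hoxd1 lay 60222 bp away. Beyond Hoxb1 it was 39007 bp and beyond Hoxc4 4129 bp. The other protein-coding gene reaching into a flank was Ttll6, a tubulin glutamylase, beside Hoxb13 with 5.24% of its span covered.

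The clusters also contain non-coding genes. Of 24 long non-coding RNA genes inside the spans, 22 had a peak on the span, against 54.1% of 12637 such genes in the table. All 24 had a peak within 1000 bp of a gene end, against 43.9%. Those without a peak on the span were Gm29905 and Hotair. Hotair is a long RNA between Hoxc11 and Hoxc12 that has been studied as a partner of Polycomb. The nearest peak lay 175 bp from Hotair. Haglr, beside Hoxd1, was covered to 18.0% and Hottip, just outside the cluster at Hoxa13, to 31.9%. The counts do not separate these genes from Hox genes, because most overlap or adjoin one.

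Of 6 microRNA genes in the clusters, 3 had a peak on the hairpin, against 17.3% of 1228 microRNA genes. Peaks covered 32.4% of the cluster spans as a whole, so that the count does not set these genes apart from the DNA around them. They were Mir196b in Hoxa (peak of 2125 bp), Mir10b in Hoxd (1286 bp) and Mir615 in Hoxc, which lies under the broad Hoxc5 peak. Mir10a, Mir196a-1 and Mir196a-2 had none, and their nearest peaks lay 862, 217 and 170 bp away. The mature 5p sequences from RefSeq (GRCm38.p6) are shown with the seed, bases 2 to 8, in capitals, since the covered and uncovered genes of each pair share it.
miR-196b-5p (Mir196b, covered): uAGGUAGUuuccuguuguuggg
miR-196a-5p (Mir196a-1 and Mir196a-2, not covered): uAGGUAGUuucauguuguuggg
miR-10b-5p (Mir10b, covered): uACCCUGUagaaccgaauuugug
miR-10a-5p (Mir10a, not covered): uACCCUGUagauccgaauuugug

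The miR-196 and miR-10 families are known regulators of Hox messages. The seed AGGUAGU is common to the miR-196 genes and ACCCUGU to the miR-10 genes, and in each family 1 gene was under a peak.

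Motifs of Hox factors and their partners were looked up in the promoter windows on both strands. TGATNNAT, the bipartite site of PBX and HOX proteins, was present in 4 of 24 Hox windows (16.7%) and in 7.45% of all protein-coding windows. TGACAG, the MEIS site, was in 2 of 24 (8.33%) against 18.7%, TAATTA, a homeodomain core, in 2 of 24 (8.33%) against 4.53% and TATAAA, the TATA box, in 4 of 24 (16.7%) against 12.6%. Each motif was counted on its own, and no match of one shared a base with a match of another in the Hox windows. The 4 windows with TGATNNAT were those of Hoxa2, Hoxb1, Hoxb8 and the second start of Hoxd11. Hoxb1 is shown with the match in capitals because its autoregulation through PBX and HOX sites in the hindbrain is textbook knowledge (chr11:96365508-96365807, plus strand). The last 106 of the 300 bases lay in a peak, and the match, at 96365596 to 96365603, lay outside it, 99 bp from its nearest base.
Hoxb1: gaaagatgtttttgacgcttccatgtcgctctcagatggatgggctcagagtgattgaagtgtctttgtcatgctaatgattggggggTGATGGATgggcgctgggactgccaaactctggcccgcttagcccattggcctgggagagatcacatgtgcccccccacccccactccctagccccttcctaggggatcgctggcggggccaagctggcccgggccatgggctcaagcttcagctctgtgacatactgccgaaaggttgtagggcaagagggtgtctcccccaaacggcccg

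A match is a run of letters and does not show binding, and with 24 windows 1 window more or less moves a share by several percentage points.

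Partners and regulators of Hox genes were compared by a peak within 1000 bp of either gene end, which 67.3% of protein-coding genes had and all 39 Hox genes had. All 9 genes of the Hox cofactors Meis, Pbx and Pknox, TALE homeodomain proteins that bind DNA with Hox proteins, had one. The widest were 21116 bp at Meis2, 5191 bp at Pknox2 and 4366 bp at Pbx2. Of 18 regulators of Hox transcription 17 had one, among them Rara (6084 bp), a retinoic acid receptor gene, and Kmt2a (4934 bp), which encodes a histone H3 methyltransferase that keeps Hox genes active. The exception was Rarb, a retinoic acid receptor gene of 651493 bp with 19 peaks on its span. The 6 Polycomb genes of the list had end peaks of 1786 to 3165 bp. The list of even-skipped and paraHox genes also holds other homeobox genes, Gbx2 among them. All 10 of its genes had one, led by Evx1 (4878 bp), Gbx2 (4453 bp) and Gsx1 (4436 bp). The median covered share of the span in this list was 55.8%, above the 46.8% of the Hox genes. In the cofactors it was 13.5% and in the regulators 4.68%, and these lists hold longer genes.

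Covered share was then set beside that of the Dlx genes, another homeobox family. The median was 46.8% over 39 Hox genes (range 16.8% to 100%) and 100% over 6 Dlx genes (35.9% to 100%). An end peak among the broadest 1% was found at 5 of 39 Hox genes and 4 of 6 Dlx genes, against 3.42% of protein-coding genes. The 5 Hox genes share 3 peaks, that of 6720 bp reaching within 1000 bp of both Hoxa7 and Hoxa9 and that of 6845 bp reaching both Hoxc5 and Hoxc6. Dlx1, Dlx2, Dlx5 and Dlx6, factors of ganglionic eminence neurons, lay under peaks of 25417 bp (Dlx1 and Dlx2) and 25330 bp (Dlx5 and Dlx6), while the widest Hox peak had 6845 bp. Dlx3 (60.6%) and Dlx4 (35.9%), which are known from skin, tooth and placenta, were covered less. All 6 Dlx shares lay within the Hox range, which also reaches 100%. No test was made of these differences.

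**Figure D5:**
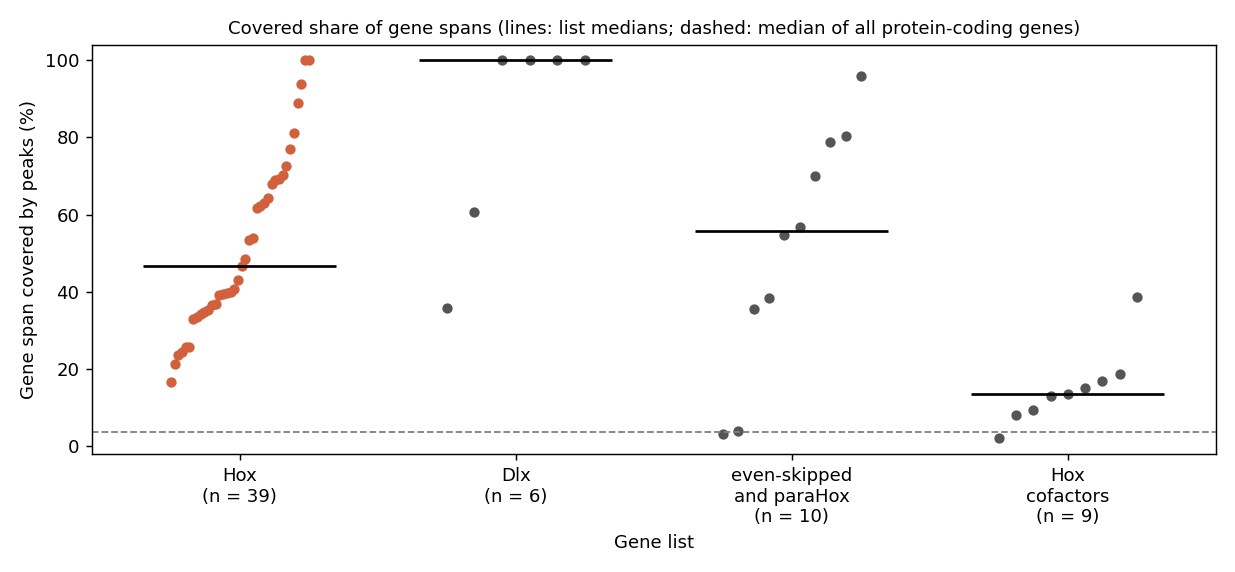
Share of the gene span (%) covered by peaks for Hox genes, Dlx genes, even-skipped and paraHox genes and Hox cofactors. The list labelled even-skipped and paraHox also holds other homeobox genes such as Gbx2. Each point is 1 gene (38 Hox genes are drawn), solid lines are list medians and the dashed line is the median of all protein-coding genes (3.77%). Hox genes spread from 16.8% to 100%, and 4 Dlx genes lie at 100%.

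Markers of the labelled tissue and of caudal neural tissue were both covered. All 13 striatum and ganglionic eminence markers had an end peak, and 9 of 13 had one in the broadest 1%. Their median covered share was 48.9% (range 6.87% to 100%). Over all protein-coding genes 67.3% had an end peak, 3.42% had one in the broadest 1% and the median covered share was 3.77%. All 14 factors of hindbrain and spinal cord other than Hox had an end peak as well, and 5 of 14 had one in the broadest 1% (the widest at Lbx1, En1 and Lmx1b). Their median covered share was 67.0% (range 2.96% to 100%). The median length was 12584 bp in the striatal list and 4531 bp in the caudal list, and the part of length in the medians was not tested. Whether caudal tissue or caudal cells contributed to the Hox peaks was not tested, since the peak list cannot be divided by cell.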

How the data were processed

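The authors deposited 1 list of peak positions in mm10, a file of chromosome, start and end with no measured value. The tools named, per the submitters' processing notes, are Cell Ranger ATAC 1.2.0 and Signac, with no role or order. The peak caller, any pooling of libraries and whether starts count from 0 or 1 are not given in the sources used here. Starts were taken to count from 0. Positions of peaks are printed as deposited. The smallest gap between peaks in the clusters was 501 bp.

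Genes came from RefSeq, GRCm38.p6. Of 49997 entries, 402 on scaffolds, off the main chromosomes or with repeated symbols were left out. Overlap meant at least 1 bp. Computation used Python 3.11.15, pandas 2.3.3 and numpy 2.4.6, and was tested on simulated data, where all 2000 regions gave the known covered bases, peak number and nearest distance. Members and lists were chosen with earlier results of these data known, and all 39 members may be named. Beside them the rule named the protein-coding flank genes and, per list, up to 3 genes with the widest end peak and all with none. Dlx3, Dlx4, Dlx5 and Dlx6, the non-coding genes and the intervals named were picked after their values were seen. A few genes are not reported here by name. Alternatives changed flanks, windows, peak widths, class limits and clusters. Comparing by listed start or outer gene end follows the promoter table, which has a start for 17492 of 21774 protein-coding genes.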

Additional observations from a re-analysis of the deposited data

How the results depend on the processing

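The number of peaks in the Hox regions (168) was 146 with a flank of 10 kb and 191 with 100 kb. The number of genes with a start-site peak (38) was 34 with a window of 250 bp or with peaks of at least 500 bp only, and 39 with a window of 2500 bp or either gene end. Restricted to the 22 genes with a listed start it was 21. The covered share of the cluster spans (32.4%) was 28.0% without the broadest peak of each cluster, 29.3% without Hoxa, 39.4% without Hoxb, 31.2% without Hoxc and 31.1% without Hoxd. With peak starts counted from 1 it was 32.5%.

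Median covered shares were 36.7% in anterior and 47.4% in posterior genes. With 5 kb added on each side they were 29.1% and 44.9%, and with peaks of at least 500 bp only 35.8% and 42.3%. They were 33.9% and 57.9% without Hoxa, 47.7% and 47.4% without Hoxb, and 36.8% and 40.8% without either Hoxc or Hoxd. Among genes of at most 10 kb they were 56.0% and 54.0%, in 10 kb around the start 28.5% and 44.0%, and by cluster segment 25.8% and 30.2%. With groups 1 to 3 as anterior and 4 to 8 as central they stayed at 36.7% and 47.4%. Anterior was thus lower in 8 of 10 alternatives. These reuse the same genes and the same peak list, so the tally is a description and not independent support. Genes of at most 10 kb, 10 kb around the start, segments, listed starts and starts counted from 1 were added after the data were seen. No paired analysis was possible because there is 1 group and 1 shared peak list. Depth is unknown, so the absence of a peak does not show closed DNA.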

Other observations

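The 3 peaks narrower than 20 bp in the Hox regions all lay in or beside Hoxb, with widths of 2, 6 and 18 bp. They were 1.79% of the Hox region peaks, against 1.61% of all peaks, so the share itself is near the background. The DNA between neighbouring Hox genes was covered to 100% between Hoxb7 and Hoxb8 (278 bp) and between Hoxc5 and Hoxc6 (2125 bp). It was covered to 0% between Hoxc4 and Hoxc5 (667 bp) and between Hoxd11 and Hoxd12 (1852 bp). These intervals were chosen after their values were seen.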
